A study of Mus musculus with 15 samples.

Results

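The effect of an agonist antibody (Ab) against CD40 on the tumor transcriptome was read across 2 inhibitor backgrounds, that is, with and without a MEK inhibitor (MEKi). The tumors had grown from PDA30364, a mouse pancreatic ductal adenocarcinoma line injected under the flank skin of C57BL/6-Ly5.1 mice aged 6 to 12 weeks, and each array held RNA of 1 whole tumor taken on day 26. Members were chosen by the treatment labels alone: 8 of the 15 arrays came from tumors given CD40 Ab and 7 from tumors given control IgG. The 4 groups were the combination (MEKi+CD40 Ab in the plots, 30 mg/kg of the MEKi GDC-0623 daily plus CD40 Ab, n = 4), MEKi (the same dose plus control IgG, n = 3), CD40 Ab (vehicle plus CD40 Ab, n = 4) and control (vehicle plus control IgG, n = 4). Antibody or IgG was injected on treatment days 3, 5 and 7 and 1 day before analysis, and all tumors came from the same cell line.

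CD40 is a receptor of the tumor necrosis factor receptor family on B cells, dendritic cells and macrophages. Its ligand on activated helper T cells, or an agonist antibody in its place, signals through TRAF adaptors to NF-kB and licenses antigen-presenting cells to display peptide on MHC molecules, to express co-stimulatory ligands and to release interleukin 12. T cells and natural killer cells primed in this way release interferon gamma, which in turn raises antigen presentation and guanylate-binding proteins in many cell types, tumor cells included. MEK is the kinase directly above ERK, and MEK inhibitors slow the growth of many tumors with active RAS.

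The main effect of the antibody was the log2 difference between the 8 antibody and the 7 IgG arrays in a limma fit with the inhibitor as a covariate and no interaction term. In this fit the vehicle background carried 53.85% of the weight and the MEKi background 46.15%. Each gene was read from 1 probe set, the brightest on average of those annotated to it alone, values are log2 signals after robust multi-array average (RMA), and passing means a Benjamini-Hochberg adjusted p under 0.05 over 45037 probe sets. A whole tumor mixes cell types, and more cells of a type cannot be told apart from more RNA per cell. Of 8 ductal markers checked, Krt8, Krt18, Krt19, Krt7 and Cdh1 had mean signals at the 98.1th to 99.8th percentile of all genes and Muc1 at the 93.9th, while Epcam was at the 84.2th, from 6.67 to 11.42 over the 15 tumors, and Sox9 at the 65.2th, from 7.40 to 8.31.

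Several facts of the series bear on the comparison. Animal numbers fell in 2 series, with all 4 combination tumors under 10000 and all 3 MEKi tumors from 10000 on, so within the MEKi background antibody and animal number series cannot be told apart, while CD40 Ab tumors were split 2 and 2 and control tumors 3 and 1. A fit with the series as a covariate separates the 2 only through the vehicle tumors and takes both effects as equal across backgrounds. The mean level of 18 skin and hair genes was 4.69 to 5.41 in combination and 7.06 to 7.69 in MEKi tumors, and 4.77 to 5.85 in CD40 Ab and 4.85 to 6.57 in control tumors, the highest being control replicate 4. Skeletal muscle genes lay between 7.39 and 8.91 in combination, 7.16 and 9.95 in MEKi, 4.42 and 6.08 in CD40 Ab and 4.47 and 6.48 in control tumors. MEKi replicate 1 stood apart from the other MEKi tumors, with the highest muscle level and a Ms4a1 (CD20, a B cell marker) signal of 7.95 against 3.53 in each of the other MEKi tumors. Principal component 2, with 16.3% of the variance, lay between -30.56 and -15.41 in combination and between -1.67 and 30.88 in MEKi tumors, and between -6.86 and 1.62 in CD40 Ab and 6.41 and 13.50 in control tumors. Antibody and IgG arrays did not overlap on it within either background (exact permutation test within backgrounds, two-sided, p = 0.000408, the smallest that 2450 arrangements allow, adjusted 0.00245 over 6 array measures).

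Genes higher with CD40 Ab included antigen presentation, interferon response and cytotoxic lymphocyte genes, and a smaller group of lower genes included stromal and hair genes. In all, 380 of 45037 probe sets passed (0.844%), 292 higher and 88 lower with antibody. These gave 226 of 18193 genes (1.24%), of which 179 were higher (0.984% of all genes) and 47 lower (0.258%). The median log2 difference was 0.66 for the genes that rose and -0.75 for those that fell, beside 0.0006 for all genes. A change of at least 1 on the log2 scale was seen in 31 rising and 18 falling genes. All 226 genes had the same sign in each background when the backgrounds were fitted alone. In 96 of the 179 rising genes every antibody array lay above every IgG array within both backgrounds, a pattern that 118 of all 18193 genes (0.649%) showed, and in 23 of the 47 falling genes every antibody array lay below, as in 54 of all genes (0.297%). The rule of the fit favors such genes, so these counts are descriptions. In the same limma fit 2828 of the 18193 genes had an unadjusted p under 0.05, the background for list counts at that level.

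The rises and the falls differed in how the backgrounds shared them. Among the 179 rising genes, 84 had the larger difference with vehicle, and the median was 0.59 with vehicle and 0.60 with MEKi. Of the 47 falling genes, 44 fell further with MEKi, with a median of -0.50 with vehicle and -1.06 with MEKi. The interaction passed for 1441 of all probe sets (3.2%) and 4.56% of all genes, and for 7 of the rising and 9 of the falling genes. Fitted alone, the vehicle background gave 323 probe sets (0.717%) and 193 genes (1.06%; 184 higher, 9 lower) and the MEKi background 1264 probe sets (2.81%) and 733 genes (4.03%; 251 higher, 482 lower). These fits share no arrays, and 12 genes passed in both, or 6.22% of the vehicle and 1.64% of the MEKi genes, 11 of them with the same sign. Of the 226 genes, 103 passed in neither background alone. In the vehicle background no probe set passed in limma without control replicate 1, 2 or 3 or CD40 Ab replicate 4, with 3975, 3812, 4096 and 4011 at an unadjusted p under 0.05.

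**Figure D1:**
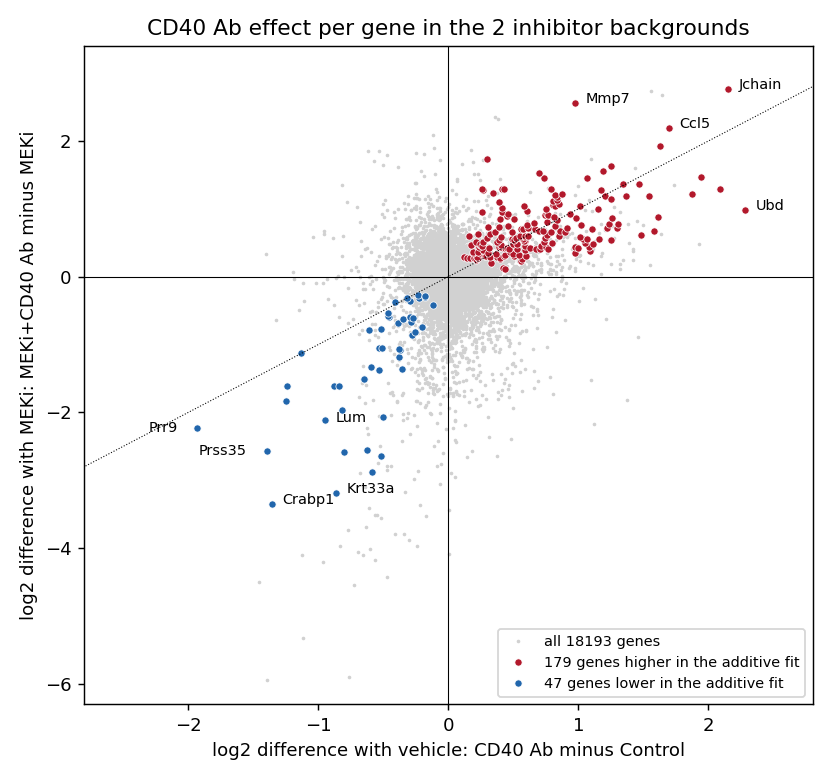
Each point is a gene, with the log2 difference of CD40 Ab minus control tumors (vehicle background, 4 against 4) on the horizontal axis and of combination minus MEKi tumors (4 against 3) on the vertical axis, and the dotted line marks equal differences. Grey points are all 18193 genes, red the 179 that were higher and blue the 47 that were lower in the additive fit, and 44 of the 47 blue points have the larger fall with MEKi.

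The number of passing genes moved with single tumors. It lay between 61 without MEKi replicate 2 and 387 without MEKi replicate 1, and with the levels of muscle and skin genes as covariates it was 22, of which 15 were among the 226. Skin levels did not overlap between combination and MEKi tumors, so with MEKi this covariate and the antibody cannot be told apart. The same holds for all counts given below with these covariates. With the backgrounds weighted equally and the interaction in the model the number of passing genes was 950, of which 49.5% were higher, against 79.2% in the additive fit, and all 226 were among them. Of 47 named genes that passed, 19 passed whichever array was left out, and the other 28 lost the call in 2 to 14 of the 15 fits, with adjusted p up to 0.119 and no change of sign. The 19 were Ccl5, Apol6, Chil1, H2-DMb2, Tcp11x2, Il12rb1, Gbp7, Gzmk, Insl6, Cfp, C130026I21Rik, H2-M3, Bst2, Oasl1, Casp4, Cnksr2, Lama2, Prss35 and Prr9.

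Genes of MHC class II presentation, which displays peptides to helper T cells, were higher with antibody. Of 11 measured list members, 6 rose (H2-DMb2, H2-DMa, H2-Eb1, Ciita, Ctss and H2-Eb2), none fell and 5 did not pass, with a list median of 0.70 (0.89 with vehicle, 0.60 with MEKi). H2-DMb2, a chain of the DM chaperone that loads peptide onto class II, read 10.69, 10.95, 10.01 and 10.09 in combination tumors, against 9.81, 7.98 and 9.40 in MEKi tumors. In tumors without inhibitor, it read 8.91, 8.49, 9.43 and 9.36 in CD40 Ab tumors, against 7.55, 7.27, 7.47 and 8.03 in control tumors. All antibody arrays lay above the IgG arrays of their background, and the main effect was 2.68-fold (log2 difference 1.42 ± 0.25 (SE), adjusted p = 0.0171).

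Its partner H2-DMa rose 2.05-fold (log2 difference 1.03 ± 0.19 (SE), adjusted p = 0.0236), and the class II beta chain H2-Eb1 rose by 0.90 ± 0.19 on the log2 scale (adjusted p = 0.0405). Ciita, the transactivator that switches on class II genes, read 6.86, 6.91, 6.55 and 6.74 in combination tumors, against 6.45, 5.76 and 6.42 in MEKi tumors. Its vehicle values were 5.92, 5.59, 6.28 and 6.53 in CD40 Ab tumors, against 4.95, 5.13, 4.47 and 5.15 in control tumors. The groups did not overlap within either background (log2 difference 0.88 ± 0.17 (SE), adjusted p = 0.0279). H2-Aa (0.65, adjusted p = 0.0696), H2-Ab1 (0.76) and Cd74 (0.70), the invariant chain, did not pass, and H2-Ob, a chain of the DO modulator made mainly by B cells, had -0.68. The list count was 9 with the animal number series as a covariate, 3 with the muscle and skin covariates, and 1 without control replicate 1 or without MEKi replicate 2, while the list median stayed between 0.61 and 0.79 whichever array was left out.

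MHC class I genes, which present peptides to cytotoxic T cells, rose in the same fit. Of 15 measured members, 8 rose (H2-K1, H2-D1, H2-M3, B2m, Tap2, Psmb8, Psmb9 and Nlrc5) and none fell, with a list median of 0.45 (0.79 with vehicle, 0.32 with MEKi). The heavy chain H2-K1 read 13.37, 13.49, 13.38 and 13.39 in combination tumors, against 13.16, 12.91 and 13.18 in MEKi tumors. The vehicle arrays gave 13.24, 13.12, 13.25 and 13.24 in CD40 Ab tumors, against 12.54, 12.83, 12.37 and 12.93 in control tumors. Antibody arrays were higher without overlap in both backgrounds, on a signal that was already among the highest on the array, and the rise was 1.36-fold (log2 difference 0.44 ± 0.08 (SE), adjusted p = 0.0227). H2-D1 rose 1.34-fold (log2 difference 0.42 ± 0.08 (SE), adjusted p = 0.0227). The H2-K1, H2-D1 and H2-Aa probe sets are of the kind that can match several transcripts. Closely related class I or class II genes may therefore add to their signals. Probe sets of the same kind were read for Ighm, S100a8, Sema4f and Krtap16-3, named below, so other transcripts may add to those signals too.

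Larger rises were seen in the machinery that makes and moves the peptides. The immunoproteasome subunits Psmb8 (1.07 ± 0.22, adjusted p = 0.0386) and Psmb9 (1.02 ± 0.20, adjusted p = 0.0313), the peptide transporter chain Tap2 (0.92 ± 0.17, adjusted p = 0.0276) and Nlrc5 (0.99 ± 0.22, adjusted p = 0.0497), the class I transactivator, rose on the log2 scale by these amounts. H2-M3, a class Ib molecule that presents N-formyl peptides, rose by 0.79 ± 0.12 (adjusted p = 0.00934) and passed whichever array was left out. Tap1 had 0.98 and did not pass. The list count was 14 of 15 with the animal number series as a covariate, 2 with the muscle and skin covariates, and 1 without CD40 Ab replicate 4, MEKi replicate 2 or combination replicate 2, with a list median of 0.40 to 0.52 over the left-out arrays.

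Interferon gamma induces guanylate-binding proteins and immunity-related GTPases, which attack vacuoles of intracellular microbes. Of 18 measured genes of this response, 6 rose (Gbp6, Gbp7, Gbp8, Igtp, Iigp1 and Ifi47) and none fell, and all 18 had positive differences with a median of 0.71 (1.07 with vehicle, 0.36 with MEKi). Gbp7 read 10.79, 11.27, 10.69 and 10.53 in combination tumors, against 10.23, 9.50 and 10.11 in MEKi tumors. Without the inhibitor, values were 10.59, 10.40, 10.80 and 11.16 in CD40 Ab tumors, against 8.82, 9.33, 8.45 and 9.89 in control tumors. Antibody arrays lay above IgG arrays in both backgrounds, and the rise was 2.42-fold (log2 difference 1.27 ± 0.22 (SE), adjusted p = 0.0162). Gbp6 rose 2.24-fold (log2 difference 1.16 ± 0.23 (SE), adjusted p = 0.0288) and Gbp8 2.12-fold (log2 difference 1.08 ± 0.22 (SE), adjusted p = 0.033).

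A gene outside the list, picked after its values were seen, was also higher. Ubd, the ubiquitin-like modifier FAT10, read 10.52, 11.00, 9.83 and 10.33 in combination tumors, against 9.03, 9.17 and 10.11 in MEKi tumors. With vehicle it read 9.55, 8.60, 8.93 and 10.01 in CD40 Ab tumors, against 7.21, 6.71, 6.38 and 7.67 in control tumors, and every CD40 Ab tumor was above every control tumor while combination replicate 3 lay below MEKi replicate 3 (log2 difference 1.68 ± 0.30 (SE), adjusted p = 0.022). Ifng itself (0.92, adjusted p = 0.0801), its induced chemokines Cxcl9 (0.92, adjusted p = 0.0683) and Cxcl10 (0.65, adjusted p = 0.321), the tryptophan-degrading enzyme Ido1 (1.17, adjusted p = 0.12) and the checkpoint ligand Cd274 (0.79, adjusted p = 0.0599) did not pass. With vehicle alone Ifng (1.16) and Ido1 (1.63) passed, but not without control replicate 1, 2 or 3 or CD40 Ab replicate 4, and their differences with MEKi were 0.65 and 0.62, with the difference between backgrounds not past the threshold. Of the interferon gamma list 13 passed with the animal number series as a covariate, 2 with the muscle and skin covariates, and 1 without control replicate 1 or 2, CD40 Ab replicate 4, MEKi replicate 2 or combination replicate 2.

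Genes of the type I interferon response, which restrict viruses in the cytoplasm, were higher with antibody in part. Of 23 measured, 9 rose (Herc6, Oasl2, Zbp1, Mx1, Bst2, Irf7, Ifit2, Oasl1 and Xaf1), none fell, and all 23 had positive differences with a median of 0.59 (0.66 with vehicle, 0.40 with MEKi). Bst2, tetherin, which holds budding virus at the cell surface, read 11.01, 11.07, 10.50 and 10.88 in combination tumors, against 10.20, 9.93 and 10.45 in MEKi tumors. In tumors without inhibitor, it read 10.67, 10.39, 10.75 and 11.12 in CD40 Ab tumors, against 9.95, 10.20, 9.79 and 10.20 in control tumors. The antibody arrays were higher without overlap in both backgrounds (1.61-fold; log2 difference 0.69 ± 0.12 (SE), adjusted p = 0.0162). Oasl1, a 2'-5' oligoadenylate synthetase-like protein, rose 1.48-fold (log2 difference 0.57 ± 0.08 (SE), adjusted p = 0.00784), Herc6, an ISG15 ligase in mouse, rose 1.9-fold (log2 difference 0.93 ± 0.17 (SE), adjusted p = 0.0221), and the transcription factor Irf7 rose by 0.66 ± 0.15 (adjusted p = 0.0497). The list count was 15 with the animal number series as a covariate, none with the muscle and skin covariates, and 2 without control replicate 3 or MEKi replicate 2.

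**Figure D2:**
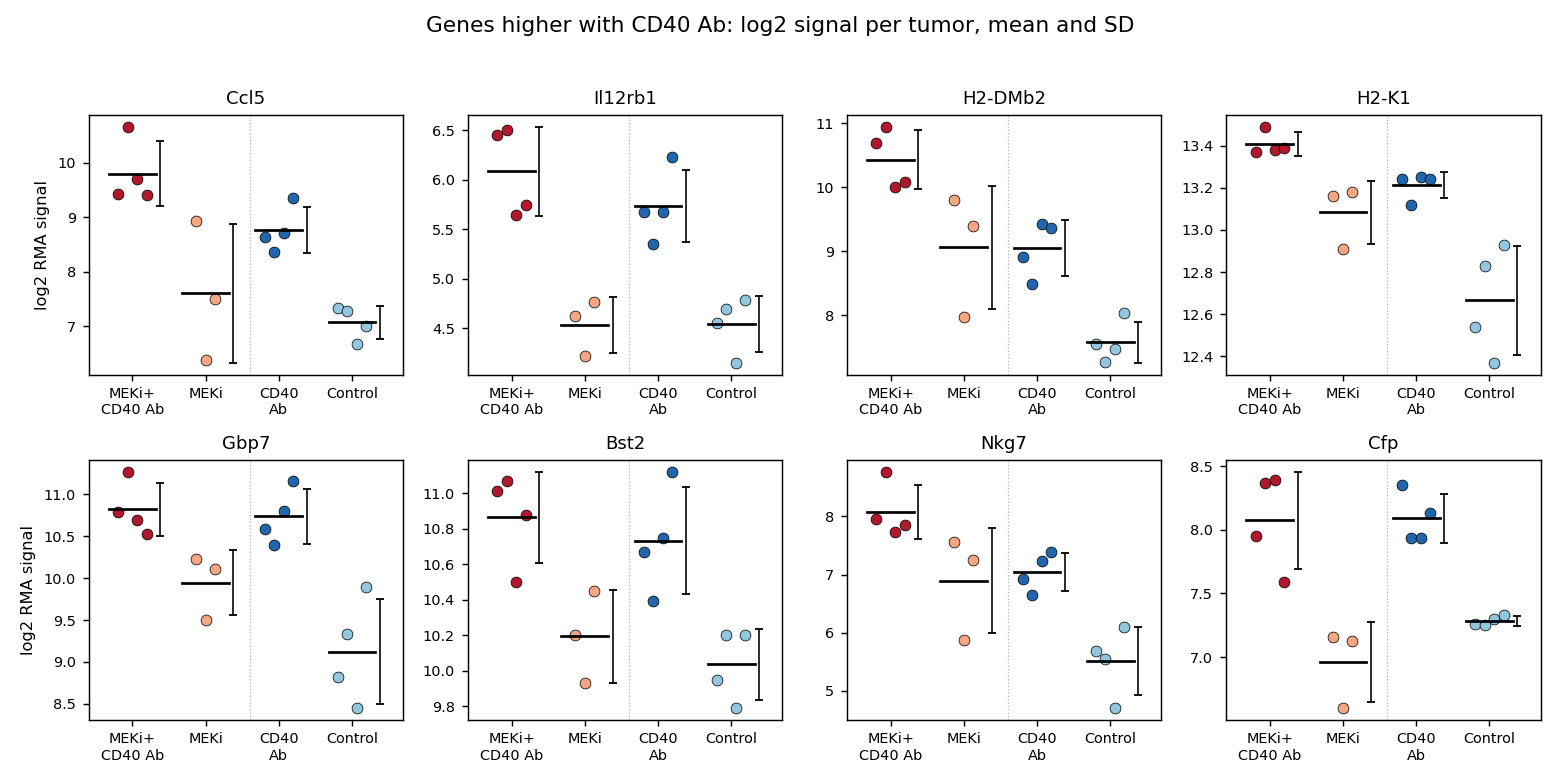
Log2 RMA signals of 8 genes that rose with CD40 Ab, 1 point per tumor, with the group mean (line) and SD (bar), and groups from left to right combination (n = 4), MEKi (n = 3), CD40 Ab (n = 4) and control (n = 4). In each of the 8 genes the antibody points lie above the IgG points of the same background.

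The promoters of the rising genes were searched for the binding motifs of the factors downstream of interferons and CD40. RefSeq promoter windows (GRCm38.p6, 250 bases before to 50 after the gene's start) were at hand for 141 of the 179 rising, 35 of the 47 falling and 14452 of all 18193 genes. The interferon-stimulated response element, searched on both strands as GAAA, any 2 bases and GAAA, was in 25 of 183 windows of rising genes (13.7%), 1 of 43 of falling genes (2.33%) and 548 of 18109 of all genes (3.03%). The NF-kB motif, searched as GGG, any 2 bases and TTTCC, was in 10 windows of rising genes (5.46%), in none of falling genes and in 1.58% of all, and the gamma-activated site, TTC, any 3 bases and GAA, was in 11.5%, 11.6% and 7.21%. A match describes letters in the window and was not tested as a binding site. The following windows are a selection from genes named here that rose and hold a response element or an NF-kB motif. They are written 5' to 3' on the strand of the gene, with the match in capitals. The match opens with TTTC or GGAAA where it is on the other strand.
Gbp7, chr3:142530275-142530300: gtgtgcagTTTCAGTTTCagttctcc
Igtp, chr11:58199514-58199539: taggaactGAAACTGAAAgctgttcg
Bst2, chr8:71537579-71537604: aggaaaatGAAACTGAAAggctgcag
Tnfsf13b, chr8:10006609-10006634: caaaaactGAAAGTGAAAtgcggaag
Calhm6, chr10:34128019-34128044: aaaaaaaaGAAAGTGAAAcccggaag
B2m, chr2:122147540-122147565: aagaacatGAAACTGAAAatgggaaa
B2m, chr2:122147553-122147578: tgaaaatgGGAAAGTCCCtttgtaac
Ubd, chr17:37193869-37193894: ttgaacttGGGGATTTCCaacccagc
Casp4, chr9:5308748-5308773: gagttacaGGGGATTTCCccacagca
The Bst2 window held a second response element overlapping the first, and the B2m window held a response element and an NF-kB motif side by side. The Casp4 window held a second NF-kB motif nearer the start. Matches in other genes named here, such as a response element in Ctss, are not shown. Of the genes shown, Igtp is a member of the interferon gamma list and Calhm6, Tnfsf13b and Ubd were picked after their values were seen. Calhm6, a member of the calcium homeostasis modulator family, rose by 1.57 ± 0.31 (adjusted p = 0.0319), Tnfsf13b, the B cell survival factor BAFF, by 0.99 ± 0.18 (adjusted p = 0.0221), B2m, the light chain of class I, by 0.33 ± 0.06 (adjusted p = 0.0255) and Casp4, the inflammatory caspase that senses lipopolysaccharide, by 0.52 ± 0.08 (adjusted p = 0.0101).

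Genes of cytotoxic lymphocytes rose in part. Of 16 measured members of this list, 4 rose (Nkg7, Gzmk, Cst7 and Klrg1) and none fell, with a median of 0.40 (0.40 with vehicle, 0.44 with MEKi). Nkg7, a granule membrane protein of natural killer and CD8 T cells, read 7.96, 8.77, 7.73 and 7.85 in combination tumors, against 7.56, 5.87 and 7.25 in MEKi tumors. Its vehicle values were 6.93, 6.65, 7.23 and 7.38 in CD40 Ab tumors, against 5.68, 5.55, 4.70 and 6.09 in control tumors. The arrays did not overlap within either background (2.6-fold; log2 difference 1.38 ± 0.26 (SE), adjusted p = 0.0264). Gzmk, a granzyme of memory-like CD8 T cells, rose 2.36-fold (log2 difference 1.24 ± 0.20 (SE), adjusted p = 0.0121) and passed whichever array was left out. The list count was 1 without control replicate 1 or 3 or MEKi replicate 2 and none with the muscle and skin covariates, and Nkg7 lost the call in 5 and Klrg1 in 9 of the 15 fits with an array left out.

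Other effector genes did not pass. Gzmb had 0.95 (adjusted p = 0.0684), Prf1, the pore-forming perforin, -0.01 (adjusted p = 0.978) and Cd8a 0.67 (adjusted p = 0.157). None of the 16 measured T cell genes passed in limma, although 10 of them were higher and 1 lower at an unadjusted p under 0.05, and their median was 0.33. Cd4 (0.06) and Foxp3 (-0.01), the regulatory T cell factor, were near 0. Foxp3 read 4.27 to 4.74, below the array medians of 5.16 to 5.24, so a change in it may not show. The mean T cell level was 6.28 to 7.04 in combination tumors, against 5.61, 6.26 and, in MEKi replicate 1, 6.87 in MEKi tumors.

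Ccl5, a chemokine that draws T cells and is released by activated T cells and macrophages, read 9.42, 10.66, 9.70 and 9.41 in combination tumors, against 8.92, 6.38 and 7.50 in MEKi tumors. The vehicle arrays gave 8.63, 8.36, 8.71 and 9.36 in CD40 Ab tumors, against 7.33, 7.27, 6.67 and 7.01 in control tumors. Antibody arrays were above IgG arrays in both backgrounds, and the rise was 3.8-fold (log2 difference 1.93 ± 0.31 (SE), adjusted p = 0.0116). It was the only one of 25 measured chemokines in its list to pass, and that list's median was 0.11.

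Il12rb1, the receptor chain shared by interleukins 12 and 23, read 6.45, 6.50, 5.64 and 5.75 in combination tumors, against 4.62, 4.22 and 4.76 in MEKi tumors. Without the inhibitor, values were 5.68, 5.35, 5.67 and 6.23 in CD40 Ab tumors, against 4.55, 4.69, 4.15 and 4.79 in control tumors. All 8 antibody arrays lay above all 7 IgG arrays, as was the case for 44 of all genes in either direction (0.242%), and the rise was 2.56-fold (log2 difference 1.36 ± 0.17 (SE), adjusted p = 0.00494). Il12b, which encodes the ligand's subunit p40, was at 2.93 to 4.05 in combination and 2.83 to 3.45 in MEKi tumors. It was at 2.91 to 3.88 in CD40 Ab and 2.82 to 3.19 in control tumors, and did not pass (0.34, adjusted p = 0.429). These Il12b values all lay below the array medians of 5.16 to 5.24, so a change may not show. Ccl22, a chemokine of mature dendritic cells, rose 2.33-fold (log2 difference 1.22 ± 0.25 (SE), adjusted p = 0.0354) with combination replicates 1 and 4 at 6.65 and 6.78, below MEKi replicate 1 at 6.94, and lost the call in 10 of 15 fits with an array left out.

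Of 16 measured pan-macrophage genes 3 rose, Lyz2 (log2 difference 0.77 ± 0.17 (SE), adjusted p = 0.0494), Cd68 (log2 difference 0.58 ± 0.12 (SE), adjusted p = 0.0385) and C1qc (log2 difference 0.68 ± 0.15 (SE), adjusted p = 0.0456), none fell, and 12 were higher at an unadjusted p under 0.05, with a median of 0.59. The count was 0 without any 1 of 11 arrays and 12 without MEKi replicate 1. Granulocyte genes had a median of -0.14 (0.21 with vehicle, -0.46 with MEKi), with 6 of 16 positive and 1 passing, and the interaction passed for 4. Cd68, a lysosomal protein of macrophages, differed between backgrounds (interaction 0.70, adjusted p = 0.0365), with 0.96 in combination against MEKi and 0.26 in CD40 Ab against control tumors. Cfp, properdin of the alternative complement pathway, read 7.95, 8.37, 8.39 and 7.59 in combination tumors, against 7.16, 6.60 and 7.13 in MEKi tumors. With vehicle it read 8.35, 7.94, 7.94 and 8.13 in CD40 Ab tumors, against 7.26, 7.25, 7.30 and 7.33 in control tumors. Antibody arrays were higher without overlap in both backgrounds (1.93-fold; log2 difference 0.95 ± 0.13 (SE), adjusted p = 0.00494).

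Most markers used to grade macrophage polarization did not pass. Mrc1 (0.01, adjusted p = 0.991), Nos2 (0.02, adjusted p = 0.956) and Arg1 (0.79, adjusted p = 0.302) did not pass. Nos2 read 4.53 to 5.10, below the array medians of 5.16 to 5.24, so a change in it may not show. Passing were 1 of 15 M2-like (Ccl22) and 1 of 12 M1-like genes (Slc7a2). Chil1, a chitinase-like glycoprotein made by macrophages, neutrophils and some tumor cells, read 7.76, 9.59, 7.89 and 7.14 in combination tumors, against 6.55, 6.96 and 6.39 in MEKi tumors. In tumors without inhibitor, it read 7.24, 6.39, 6.44 and 6.76 in CD40 Ab tumors, against 4.58, 5.09, 4.58 and 4.82 in control tumors. Antibody arrays lay above IgG arrays of the same background (3.29-fold; log2 difference 1.72 ± 0.28 (SE), adjusted p = 0.0121). Apol6, an apolipoprotein L family member, rose 3.4-fold (log2 difference 1.76 ± 0.23 (SE), adjusted p = 0.00494).

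The largest rise among passing genes was that of Jchain, which joins IgM and IgA into polymers. It read 4.14, 7.48, 7.00 and 5.53 in combination tumors, against 4.28, 2.42 and 3.11 in MEKi tumors. Its vehicle values were 5.60, 5.78, 4.65 and 6.57 in CD40 Ab tumors, against 3.06, 4.06, 3.52 and 3.36 in control tumors. The CD40 Ab tumors were all above the control tumors, while combination replicate 1 lay within the MEKi range (5.41-fold; log2 difference 2.44 ± 0.45 (SE), adjusted p = 0.0239). Ighm, the IgM heavy chain, had a 4.35-fold difference and did not pass (log2 difference 2.12 ± 0.48 (SE), adjusted p = 0.0549), with CD40 Ab tumors above control tumors and overlap between combination and MEKi tumors. Jchain was the 1 passing gene of 13 measured plasma cell and immunoglobulin genes, whose median was 0.03, and it lost the call without control replicate 1 or 3, CD40 Ab replicate 4 or MEKi replicate 2 or 3. Of 15 B cell genes none passed in limma, 1 had an unadjusted p under 0.05, and their median was -0.10 (0.11 with vehicle, -0.45 with MEKi). That median moved from -0.235 to 0.208 with an array left out. The mean B cell level was 6.71 in MEKi replicate 1, against 4.81 and 4.93 in the other MEKi tumors.

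Among ductal cell genes 1 of 15 passed. Mmp7, the metalloproteinase matrilysin of ductal and tumor epithelium, read 9.66, 9.98, 10.17 and 9.63 in combination tumors, against 7.48, 6.79 and 7.65 in MEKi tumors. The vehicle arrays gave 6.28, 8.12, 6.37 and 6.38 in CD40 Ab tumors, against 5.68, 5.84, 5.54 and 6.18 in control tumors. The antibody arrays were higher without overlap in both backgrounds, with CD40 Ab replicate 2 far above the other CD40 Ab tumors (3.26-fold; log2 difference 1.71 ± 0.31 (SE), adjusted p = 0.0239). Krt19 (-0.09, adjusted p = 0.597) and Mki67, a proliferation marker (0.05, adjusted p = 0.94), did not pass. None of 23 mitosis, 25 DNA replication or 16 cholesterol synthesis genes passed in limma or had an unadjusted p under 0.05. None of 18 ERK output genes passed, and 5 were lower at an unadjusted p under 0.05. Their median was -0.17, at 0.01 with vehicle and -0.30 with MEKi, and the interaction passed for 2.

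A group of amino acid synthesis and stress genes also rose. It was picked after the values were seen, so its count is a description. Of 39 measured genes of the amino acid response, which the factor ATF4 drives when amino acids or protein folding run short, 11 were among the passing rising genes, and 38 of 39 had positive differences with a median of 0.31 (0.33 with vehicle, 0.37 with MEKi). They were Trib3 (1.02 ± 0.20), a pseudokinase that feeds back on ATF4, Cth (0.92 ± 0.17), Bcat1 (0.83 ± 0.13), Psph (0.68 ± 0.13), Pck2 (0.66 ± 0.10), Mthfd2 (0.61 ± 0.12), Gpt2 (0.59 ± 0.10), Asns (0.49 ± 0.10), Fgf21 (0.41 ± 0.09), Aldh18a1 (0.27 ± 0.06) and Slc3a2 (0.25 ± 0.05). Pck2, the mitochondrial PEP carboxykinase, read 9.74, 9.68, 9.75 and 9.48 in combination tumors, against 8.63, 8.94 and 8.72 in MEKi tumors. Without the inhibitor, values were 9.94, 10.23, 10.20 and 10.53 in CD40 Ab tumors, against 9.75, 9.74, 9.74 and 9.86 in control tumors, and antibody arrays did not overlap IgG arrays within either background (adjusted p = 0.00934). Their number was 4 to 14 with an array left out and 0 with the muscle and skin covariates.

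**Figure D3:**
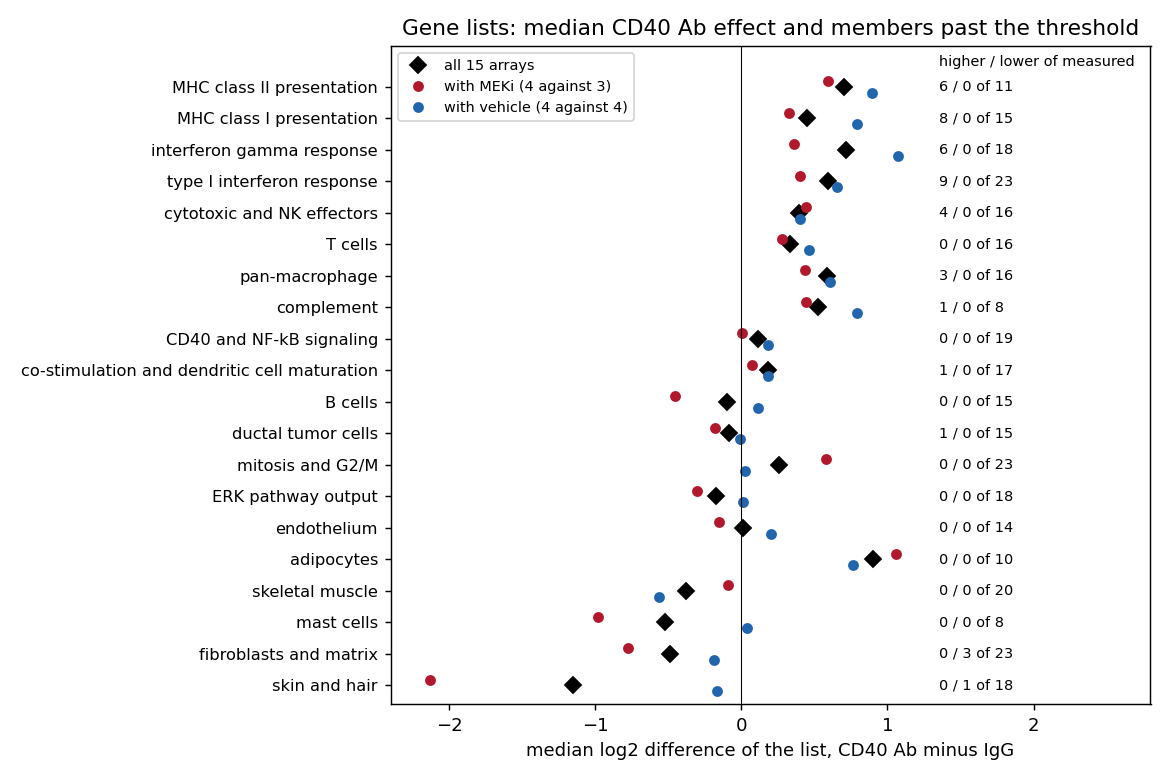
Median log2 difference, antibody minus IgG, of 20 gene lists over all 15 arrays (diamonds), with MEKi (red, combination against MEKi) and with vehicle (blue, CD40 Ab against control), and at the right the number of members that passed higher and lower of those measured. The MHC and interferon lists lie to the right of 0 in both backgrounds, while the skin and hair list is at -2.13 with MEKi and -0.17 with vehicle.

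Genes that fell included genes of fibroblasts, matrix and skin appendages. Of 23 measured fibroblast and matrix genes, 3 fell (Lum, Postn and Col6a3), none rose and 15 were lower at an unadjusted p under 0.05, with a median of -0.49 (-0.19 with vehicle, -0.78 with MEKi). Skin and hair genes moved with them in the MEKi background, at the levels given for the series, and their part in these falls was not tested. Prss35, a secreted serine protease-like protein, read 8.22, 7.68, 7.58 and 8.77 in combination tumors, against 11.39, 10.07 and 10.43 in MEKi tumors. With vehicle it read 5.40, 5.83, 6.13 and 5.36 in CD40 Ab tumors, against 7.06, 6.79, 7.27 and 7.19 in control tumors. Antibody arrays lay below IgG arrays in both backgrounds, the fall was 3.83-fold (log2 difference -1.94 ± 0.26 (SE), adjusted p = 0.00494), and the additive fit called it whichever array was left out. It passed in each background alone, in the vehicle background only while control replicates 1, 2 and 3 and CD40 Ab replicate 4 were all included.

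Lama2, the laminin chain of muscle and nerve basement membranes, read 5.77, 5.64, 6.22 and 5.54 in combination tumors, against 8.10, 7.16 and 6.96 in MEKi tumors. In tumors without inhibitor, it read 5.65, 5.31, 5.95 and 5.31 in CD40 Ab tumors, against 6.55, 6.23, 6.46 and 6.51 in control tumors. Arrays did not overlap within either background (2.33-fold lower; log2 difference -1.22 ± 0.18 (SE), adjusted p = 0.00934). Lum, the collagen-binding proteoglycan lumican, fell 2.81-fold (log2 difference -1.49 ± 0.28 (SE), adjusted p = 0.0257), with CD40 Ab replicate 1 at 9.55 within the control range of 9.09 to 9.71. Postn, periostin of activated fibroblasts, fell 1.61-fold (log2 difference -0.69 ± 0.14 (SE), adjusted p = 0.0359), and Col1a1 had -0.67 and did not pass (adjusted p = 0.0741). The list count was 0 without control replicate 3, CD40 Ab replicate 4, MEKi replicate 2 or 3, or combination replicate 1, and 10 in the fit with the most calls, with a median of -0.63 to -0.33.

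Wnt5a, a Wnt ligand of mesenchyme, read 6.90, 6.22, 5.60 and 7.07 in combination tumors, against 8.98, 7.72 and 8.13 in MEKi tumors. Its vehicle values were 5.98, 4.96, 5.48 and 4.27 in CD40 Ab tumors, against 6.41, 6.55, 6.07 and 6.66 in control tumors. Antibody arrays were lower without overlap in both backgrounds (2.86-fold; log2 difference -1.52 ± 0.28 (SE), adjusted p = 0.0235). The Wnt inhibitors Apcdd1 (-0.93 ± 0.20) and Kremen1 (-0.46 ± 0.07), the transcription factors Twist2 (-0.82 ± 0.17) and En1 (-0.70 ± 0.15), the retinoic acid binding protein Crabp1 (-2.27 ± 0.39) and Lrrc15, a marker of cancer-associated fibroblasts (2.19-fold; log2 difference -1.13 ± 0.22 (SE), adjusted p = 0.0313), passed as well, all but Lrrc15 picked after their values were seen. Twist2 was at 7.86 to 7.93 in combination tumors and 8.82 to 9.49 in MEKi tumors, and at 7.74 to 8.40 in CD40 Ab tumors and 8.25 to 8.45 in control tumors.

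Of the 18 skin and hair genes 1, Krt33a, passed the additive fit, while 11 passed in combination against MEKi tumors. Krt33a, a hair keratin, read 4.87, 3.67, 3.79 and 4.01 in combination tumors, against 7.53, 7.28 and 7.01 in MEKi tumors. The vehicle arrays gave 4.37, 3.96, 4.20 and 3.97 in CD40 Ab tumors, against 4.68, 4.51, 4.44 and 6.33 in control tumors. The groups did not overlap within either background, but the difference was -3.19 with MEKi and -0.86 with vehicle (interaction -2.32, adjusted p = 0.0268). Prr9, a proline-rich protein, fell 4.21-fold (log2 difference -2.07 ± 0.35 (SE), adjusted p = 0.0162), with -2.23 with MEKi and -1.94 with vehicle (interaction -0.30, adjusted p = 0.889). Control replicate 4 weighed on its vehicle difference: Prr9 read 6.34, 5.89, 6.50 and 8.70 in control tumors, against 5.80, 4.62, 4.37 and 4.90 in CD40 Ab tumors. Padi3, the enzyme that citrullinates trichohyalin in the hair follicle, fell 2.83-fold (log2 difference -1.50 ± 0.33 (SE), adjusted p = 0.0497), with -2.64 with MEKi and -0.52 with vehicle (interaction -2.12, adjusted p = 0.0121). Padi3 read 3.96, 3.99, 3.95 and, in replicate 4, 5.47 in control tumors, against 3.81, 3.69, 3.92 and 3.87 in CD40 Ab tumors. With the muscle and skin levels as covariates the log2 differences of Krt33a and Padi3 were -0.67 and -0.39, and those of Prr9 and Prss35 were -1.46 and -1.38, and none of the 4 passed (adjusted p = 0.131 for Prss35 to 0.875 for Padi3). Krt33a is itself 1 of the skin and hair genes behind that covariate, and the skin level separated combination from MEKi tumors. The smaller differences in this fit were therefore partly built in.

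**Figure D4:**
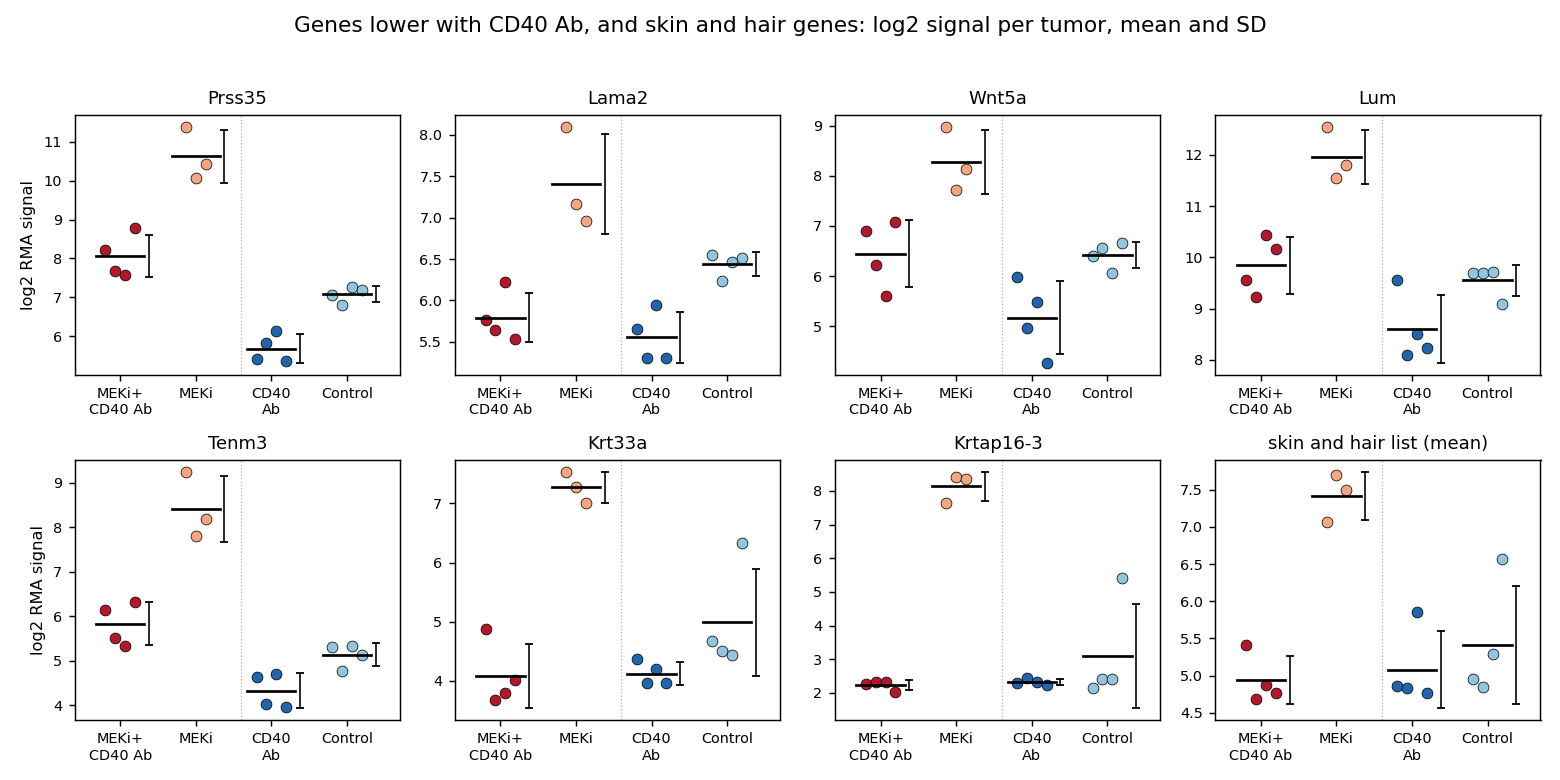
Log2 RMA signals of 6 genes that fell with CD40 Ab, of the hair keratin-associated gene Krtap16-3 and of the mean of 18 skin and hair genes, 1 point per tumor, with the group mean (line) and SD (bar), and groups from left to right combination (n = 4), MEKi (n = 3), CD40 Ab (n = 4) and control (n = 4). The 3 MEKi tumors are highest in all 8 panels, and control replicate 4 is high in Krt33a, Krtap16-3 and the skin and hair mean.

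The CD40 receptor and its signaling genes did not pass. None of 19 measured genes of the CD40 and NF-kB list passed in limma, and the median was 0.11 (0.18 with vehicle, 0.002 with MEKi). At an unadjusted p under 0.05 in limma 3 of the 19 were higher, beside 2828 of all 18193 genes in either direction. Cd40 read 6.65, 7.36, 6.86 and 6.10 in combination tumors, against 6.89, 6.43 and 6.78 in MEKi tumors. Without the inhibitor, values were 6.68, 6.37, 6.50 and 6.46 in CD40 Ab tumors, against 5.99, 5.84, 6.02 and 5.90 in control tumors. The combination and MEKi tumors overlapped, whereas every CD40 Ab tumor lay above every control tumor (log2 difference 0.32 ± 0.15 (SE), adjusted p = 0.402; with vehicle alone 0.56, adjusted p = 0.0225). The vehicle call was among those lost without control replicate 1, 2 or 3 or CD40 Ab replicate 4. Cd40lg, the ligand, had -0.02, the adaptor Traf1 0.38, and Nfkb2, the precursor of the noncanonical NF-kB subunit, -0.07. Cd40lg read 4.27 to 4.82, below the array medians of 5.16 to 5.24, so a change in it may not show.

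Co-stimulatory ligands of antigen-presenting cells stayed below the threshold. Cd80 had 0.28 (adjusted p = 0.522), Cd86 0.28 (adjusted p = 0.475) and Cd70 0.15 (adjusted p = 0.476). Cd70 read 3.35 to 4.10, below the array medians of 5.16 to 5.24, so a change in it may not show. The homing receptor Ccr7 of migrating dendritic cells had 0.75 (adjusted p = 0.257) and the dendritic cell integrin Itgax 0.42 (adjusted p = 0.203). Of 17 genes in this list 1, Ccl22, passed. Ly75, the dendritic cell uptake receptor DEC-205, rose 1.22-fold (log2 difference 0.29 ± 0.06 (SE), adjusted p = 0.0326). Cd86 lay at 6.71 to 7.04 in CD40 Ab tumors, above 6.29 to 6.56 in control tumors, but at 6.47 to 7.27 in combination tumors, within 6.19 to 7.27 in MEKi tumors.

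The additive fit takes the antibody effect as equal in both backgrounds, and the interaction measures where it was not. The interaction, combination against MEKi minus CD40 Ab against control, passed for 829 genes, 649 of them with opposite signs in the backgrounds. The interaction test favors genes with opposite signs, and the share over all genes is not given here, so the count of 649 is a description. Its highest passing values were those of Sema4f (2.48, adjusted p = 0.0025), Spon2 (2.38, adjusted p = 0.00171), Col11a1 (2.27, adjusted p = 0.0326), Myzap (2.26, adjusted p = 0.000894) and Stra6 (2.21, adjusted p = 0.00176), and its lowest those of Krtap16-3 (-5.13, adjusted p = 0.00281), Lgals7 (-4.09, adjusted p = 0.0282), Krtap19-3 (-3.96, adjusted p = 0.000882), Krt35 (-3.82, adjusted p = 0.0239) and Krtap19-2 (-3.73, adjusted p = 1.28e-05). Stra6, the retinol transporter, read 8.37, 8.21, 8.57 and 7.96 in combination tumors, against 6.59, 6.03 and 5.93 in MEKi tumors. With vehicle it read 8.26, 8.00, 7.33 and 7.49 in CD40 Ab tumors, against 7.94, 8.02, 7.58 and 8.00 in control tumors. Groups with MEKi did not overlap and groups with vehicle did. Krtap16-3 read 2.28, 2.34, 2.32 and 2.02 in combination tumors, against 7.63, 8.40 and 8.37 in MEKi tumors. In tumors without inhibitor, it read 2.31, 2.45, 2.34 and 2.23 in CD40 Ab tumors, against 2.16, 2.40, 2.42 and 5.40 in control tumors, so that only control replicate 4 and the MEKi tumors carried a clear signal. S100a8, the neutrophil alarmin, was lower in combination than in MEKi tumors (-1.36) and had 0.59 in CD40 Ab against control tumors (interaction -1.95, adjusted p = 0.0108).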

How the data were processed

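Whole tumor RNA from 15 tumors was hybridised to Affymetrix 3' expression arrays, 1 tumor per array. The authors normalized the arrays together by robust multi-array average (RMA), and the deposited values are log2 signals with 2 decimals. The version of the RMA software is not given in the sources used here. Of 45101 probe sets, 64 array controls were left out and 45037 were tested with no filter on dim probe sets. Symbols came from the platform annotation: 34945 probe sets had 1 symbol, 932 had several, 9160 had none, and 18193 genes were each read from the single-symbol probe set with the highest mean.

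The antibody main effect was fitted in limma 3.58.1 (R 4.3.3) on all arrays with the inhibitor as a covariate (lmFit and eBayes, moderated test, two-sided), with Benjamini-Hochberg adjustment over all tested probe sets and a threshold of 0.05. Each background was fitted alone, and the interaction in a separate model. Every array is a separate tumor, so p-values rest on the spread between tumors. In the additive fit that spread also holds any difference in the antibody effect between backgrounds, which widens the SE of such genes. For Krtap19-2 the SE was 0.49 in the additive fit, 0.14 with vehicle alone and 0.20 with MEKi alone. A gene that did not pass the additive fit may therefore still differ within a background. The number of arrays, not a read depth, limits the precision. The steps were tested on simulated data.

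The genes named are those that passed with antibody and IgG arrays apart in both backgrounds and had the 10 largest rises or falls, up to 3 passing members of each list in order of p, the genes of interest of the lists, the 5 highest and 5 lowest passing interactions and the 3 smallest p in each direction. Other genes named were chosen after their values were seen. The members and the 35 lists, with 529 of 583 genes measured, were chosen with earlier results of these data known. The 54 other list genes were not analysed here. Alternatives tried were no covariate, equal weights, array weights, an intensity trend, quantile normalization, median centring, other thresholds, covariates for animal number series and tissue, a replicate block, each animal number series alone and leaving out each array. Tumors were not treated as paired by replicate number. In 21 same-numbered pairs the deviations from the group means correlated at -0.357 to 0.238, with 5 over 0.1. These values show no clear pairing but cannot exclude a weak shared block, and 52 genes passed with a replicate block. Promoters came from RefSeq (GRCm38.p6).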

Additional observations from a re-analysis of the deposited data

Results flagged for a closer look

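Tumors apart from the rest of their group were searched for in 369 groups of 4 tumors, and 36 were found. Chance gives about 1 in 20 for independent groups. These groups are genes and lists of the same tumors and many move together, so the count cannot be read as an excess over chance. The rule took the gap to the nearest tumor as a share of the group's range. A tiny gap can therefore count where the other tumors nearly agree. Values are log2 signals, or means of log2 signals for a gene list. The 3 MEKi tumors were not searched, so MEKi replicate 1, which stood apart in other measures above, could not be flagged. Among the groups searched, combination replicate 2 was the tumor most often apart. It was above the other combination tumors in Apol6 (8.7), Clec4e (8.74), Cd8a (7.6), Cd68 (9.3) and H2-K1 (13.49). It was also above them in the lists of T cells (7.04), cytotoxic and NK effectors (6.86), immune checkpoints (6.86), granulocytes (6.85) and CD40 and NF-kB signaling (8.27).

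Control replicate 4 was above the other control tumors in the hair and keratin genes Padi3 (5.47), Krt33a (6.33), Krtap19-3 (4.29), Krt35 (5.56) and Krtap16-3 (5.4). It was below them in Lum (9.09), the fibroblast and matrix list (9.57, against 9.72 to 9.73) and the endothelium list (6.54, against 6.67 to 6.69). Cd70 was flagged too, but at 3.67 against 3.69 in the other control tumors, close to the rounding of the values. Without this tumor 111 genes passed the main effect. Among other control tumors, replicate 1 was low in Cd80 (4.9), replicate 2 in Pigr (4.65), the transporter of polymeric immunoglobulin, and replicate 3 was high in the nerve and Schwann cell list (6.09).

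CD40 Ab replicate 2 was above its group in Mmp7 (8.12) and Krt19 (13.21) and below it in H2-K1 (13.12) and the complement list (8.16). CD40 Ab replicate 3 was above it in Lgals7 (8.08) and the skin and hair list (5.85) and below it in Tcp11x2 (7.01). Cd40lg was flagged in the same tumor at 4.52 against 4.55 in the others, close to the rounding of the values. CD40 Ab replicate 1 was high in Lyz2 (12.48) and low in Pigr (6.45), and CD40 Ab replicate 4 was high in Ifng (5.65). Combination replicate 1 was high in Lgals7 (6.31), replicate 4 in Krtap19-2 (2.88) and replicate 3 in the nerve and Schwann cell list (6.19).

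The antibody effect differed between backgrounds for 16 of the named genes by the interaction test in limma, given as the log2 antibody difference with MEKi minus the one with vehicle. Positive values were those of Sema4f (2.476), Spon2 (2.384), Col11a1 (2.272), Myzap (2.262), Stra6 (2.209), Slc7a2 (1.011), a cationic amino acid transporter, and Cd68 (0.6967). Negative values were those of Krtap16-3 (-5.131), Lgals7 (-4.088), Krtap19-3 (-3.956), Krt35 (-3.818), Krtap19-2 (-3.732), Krt33a (-2.323), Padi3 (-2.12), S100a8 (-1.951) and Tenm3 (-1.781). The adjusted p lay between 1.283e-05 for Krtap19-2 and 0.04076 for Tenm3. Because animal number series and antibody cannot be told apart with MEKi, the same holds for these differences.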

How the results depend on the processing

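The 47 named passing genes kept their sign in all alternatives run; 20 kept the call under the replicate block, 39 with the animal number series as a covariate and 7 with the muscle and skin levels as covariates. In probe sets and genes, the main effect gave 55 and 30 with no inhibitor covariate and 1639 and 950 with equal weights and the interaction in the model. It gave 43 and 22 at an adjusted p under 0.01, 240 probe sets at a change of 0.5 or more, and 108 and 52 with the replicate block. With muscle and skin levels as covariates it gave 45 and 22. Fits within the lower or the higher animal numbers alone were chosen after seeing the data. The lower numbers held no MEKi tumor and the higher no combination tumor, so these 2 fits compared only CD40 Ab with control tumors. In the lower numbers, with 2 CD40 Ab against 3 control tumors, 2 probe sets and 1 gene passed. The higher numbers had 2 CD40 Ab tumors against 1 control tumor. The block gave 180 probe sets with MEKi. With an array left out, probe sets passing lay between 121 (without MEKi replicate 2) and 642 (without MEKi replicate 1) and genes between 61 and 387, the genes being 90, 124, 65 and 111 without control replicate 1, 2, 3 and 4, 78 without CD40 Ab replicate 4, 82 without MEKi replicate 3, and 96 and 64 without combination replicate 1 and 2. With vehicle alone the range was 0 to 320, with 0 in limma without control replicate 1, 2 or 3 or CD40 Ab replicate 4 (3975, 3812, 4096 and 4011 at an unadjusted p under 0.05), with MEKi alone 431 to 2089, and for the interaction 745 to 2072. Some genes that did not pass changed sign: Mrc1 (-0.08696 no covariate, -0.02312 array weights, -0.006923 median centring, -0.08098 series covariate, -0.09684 tissue covariates, -0.145 higher numbers, -0.1057 to 0.08708 with an array left out), Mki67 (-0.03098 array weights, -0.06002 series, -0.1649 tissue, -0.03167 lower numbers, -0.098 to 0.118), Nos2 (-0.0108 series, -0.02489 tissue, -0.003333 lower numbers, -0.038 to 0.06542), Prf1 (0.03742 series, 0.0611 tissue, 0.165 higher numbers, -0.04625 to 0.02208), Nfkb2 (0.02791 tissue, 0.115 higher numbers), S100a8 (0.5617 tissue, 0.68 lower and 0.23 higher numbers), Cd4 (-0.1667 lower numbers), Foxp3 (0.09 lower numbers, -0.043 to 0.029), Arg1 (-0.065 higher numbers) and Cd40lg (0.055 higher numbers, -0.0495 to 0.02333, ranges being those with an array left out). The values given for lower or higher numbers are differences of CD40 Ab against control tumors only, without the MEKi background, and so are unlike the main effect. The cause of the other changes was not tested.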

Other observations

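Fat cell genes were higher with antibody without passing. None of 10 measured adipocyte genes passed in limma, 8 were higher at an unadjusted p under 0.05, and the list median was 0.90 (0.77 with vehicle, 1.06 with MEKi). The mean level was 6.60 to 8.38 in combination and 6.20 to 6.82 in MEKi tumors, and 6.37 to 8.28 in CD40 Ab and 6.32 to 6.74 in control tumors, so that single tumors of both antibody groups lay within the range of their IgG group. Mast cell genes had a median of -0.52 (0.04 with vehicle, -0.98 with MEKi), with none of 8 passing in limma and 5 lower at an unadjusted p under 0.05. Their mean was 4.98 to 5.27 in combination and 6.09 to 6.88 in MEKi tumors.

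Complement genes were higher in 8 of 8 measured members, with a median of 0.53, and 1 passed. Ribosome biogenesis genes had a median of -0.12 (0.04 with vehicle, -0.34 with MEKi), with none of 19 passing in limma and 6 lower at an unadjusted p under 0.05. The interaction passed for 4 of them.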
